A study of Mus musculus with 20 samples.

Results

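The 33 genes described here carry glucose from uptake to pyruvate and settle whether pyruvate leaves the cell as lactate or enters the mitochondrion. They were taken by symbol from a list that was chosen with earlier results of these data known. All 33 had a row in the count table of 55414 genes and passed the filter on low counts, as did 15624 genes in all. RNA-seq counts per gene were available for 20 cultures of mouse cardiac fibroblasts, the matrix-producing cells of the heart wall, at passage 2. All cultures came from Hyal2fl/fl hearts per the treatment protocol, although the genotype label of every sample reads wild type C57BL/6J, and all were serum starved for 24 h and received an adenovirus for 5 h before 48 h of stimulation. The virus carried GFP as the control (groups GFP and GFP_TGFB), Cre recombinase to remove exon 2 of Hyal2 (Cre and Cre_TGFB) or Hyal2 for overexpression (Hyal2), with 4 cultures in each group. The groups whose names end in TGFB received transforming growth factor beta, TGFB, and the labels name TGFB and bFGF at 20 ng/mL without saying whether the other groups received bFGF. An effect of TGFB and one of bFGF therefore cannot be told apart in the comparisons below. By their labels, replicates 1 and 2 are female and 3 and 4 are male throughout, and values of single libraries are given in that order. The age of the animals is not given in the sources used here.

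Glycolysis splits glucose into pyruvate in the cytosol and yields a little ATP and NADH. Hexokinase traps glucose as its phosphate, phosphofructokinase commits it to breakdown, and pyruvate kinase closes the pathway. Lactate dehydrogenase then turns pyruvate into lactate, or the pyruvate carrier brings it into mitochondria, where the pyruvate dehydrogenase complex feeds the citrate cycle unless its kinases have switched it off. Fibroblasts that become myofibroblasts under TGFB are known to change how they use glucose.

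The libraries held 38621523 to 104779845 counts, and the members' counts ranged from 7 (Aldoc) to 323366 (Pkm) per library. Levels are in CPM, that is, counts per 1000000 counts of the library, with library sizes adjusted by the trimmed mean of M values (TMM). Hyal2 (ENSMUSG00000010047), the gene the viruses target, had 41.2 ± 3.46 CPM (SD, n = 4) with the GFP virus, 10.4 ± 2.9 with Cre and 934 ± 466 with the Hyal2 virus; under TGFB it had 36.8 ± 3.9 with GFP and 7.42 ± 1.56 with Cre. The order of the groups follows their labels. The 12 fibroblast markers summed to between 40148 and 71753 CPM in the 20 libraries, while the 16 cardiomyocyte markers summed to at most 5.0 CPM and the cardiomyocyte myosin Myh6 had 0 counts in all 4 libraries of GFP, Cre, Hyal2 and GFP_TGFB. The members took 1.33% ± 0.17 (SD, n = 4) of all counts in GFP, 1.42% ± 0.13 in Cre and 1.32% ± 0.15 in Hyal2, against 1.02% ± 0.10 in GFP_TGFB and 1.00% ± 0.12 in Cre_TGFB.

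GFP_TGFB was set against GFP to ask how these genes respond to TGFB in cells with the control virus. Most glycolytic enzymes and all 4 pyruvate dehydrogenase kinases fell, while hexokinase 2, phosphofructokinase P, the regulatory enzyme Pfkfb4 and the pyruvate dehydrogenase subunit Pdhb rose. By edgeR's quasi-likelihood test with Benjamini-Hochberg adjustment over all 15624 genes, called at an adjusted p under 0.05, 22 of 33 members changed, 4 higher and 18 lower. That is 66.7% of the members, where 55.3% of all genes tested were called. The members called lower were 54.5%, against 28.6% of all genes, and those called higher 12.1%, against 26.6%. The median log2 fold change was -0.24 over the members and -0.02 over all genes. In 18 members the 4 libraries of GFP_TGFB did not overlap the 4 of GFP (4 higher, 14 lower), a separation seen in 50.2% of all genes. With the replicate number as a block, which compares cultures within an isolate, 24 members were called where 61.9% of all genes were; Aldoa and Pkm then joined the lower ones. With library totals alone in place of TMM factors, the median of all genes moved to -0.13 and that of the members to -0.34, so the members stayed 0.22 below all genes (0.21 with TMM); 4 members were then called higher and 20 lower, and 3144 genes higher and 5521 lower in place of 4159 and 4475. In bulk RNA a lower level per cell and fewer cells of a type cannot be told apart.

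**Figure D1:**
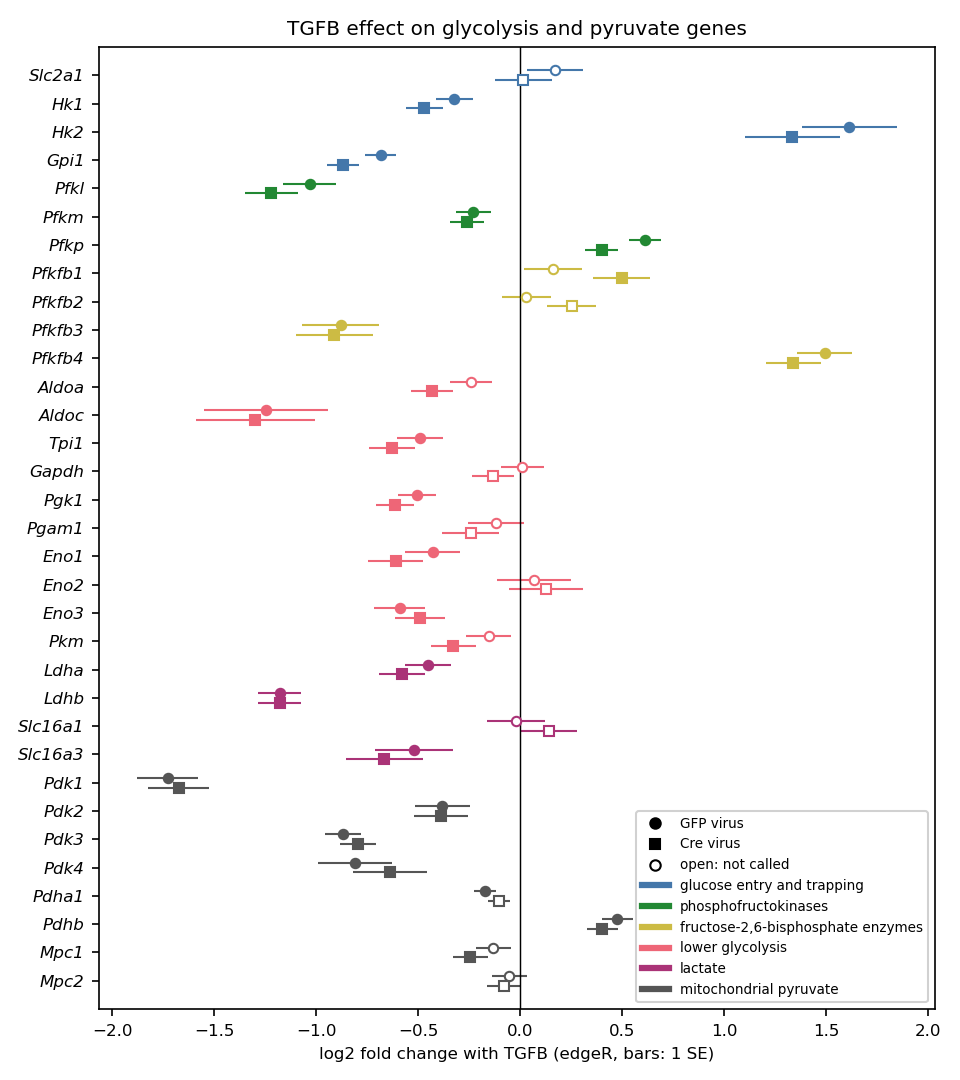
The plot gives the log2 fold change with TGFB (horizontal axis, edgeR estimate, bars 1 SE) of all 33 members (vertical axis) in cells with the GFP virus (circles) and the Cre virus (squares), coloured by role, with open symbols for members not called. Hk2 and Pfkfb4 stand above 1 with either virus, and Pdk1 lies lowest, at -1.73 and -1.67.

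The 4 sequences that follow show the 250 bases before the transcription start of the members with the largest called changes in each direction among those of at least 5 CPM, Hk2 and Pfkfb4 (higher) and Pdk1 and Ldhb (lower). They are from RefSeq (GRCm38.p6) and are written 5′ to 3′ on the gene's strand, at chr6:82774455-82774704 (minus strand) for Hk2, chr9:108991652-108991901 (plus) for Pfkfb4, chr2:71872974-71873223 (plus, the first of 2 listed starts) for Pdk1 and chr6:142507958-142508207 (minus) for Ldhb. Capitals mark ACGTG or GCGTG on either strand, the core letters bound by the hypoxia-inducible factors, known regulators of glycolysis.
Hk2: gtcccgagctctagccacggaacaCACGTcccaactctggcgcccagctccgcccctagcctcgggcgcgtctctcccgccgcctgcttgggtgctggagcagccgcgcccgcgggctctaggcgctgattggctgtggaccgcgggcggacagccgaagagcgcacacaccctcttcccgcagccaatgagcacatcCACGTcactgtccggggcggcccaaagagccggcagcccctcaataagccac
Pfkfb4: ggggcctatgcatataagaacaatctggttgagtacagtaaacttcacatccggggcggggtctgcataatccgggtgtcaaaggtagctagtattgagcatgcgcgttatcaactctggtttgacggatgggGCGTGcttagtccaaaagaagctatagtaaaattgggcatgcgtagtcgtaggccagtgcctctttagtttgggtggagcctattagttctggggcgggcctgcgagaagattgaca
Pdk1: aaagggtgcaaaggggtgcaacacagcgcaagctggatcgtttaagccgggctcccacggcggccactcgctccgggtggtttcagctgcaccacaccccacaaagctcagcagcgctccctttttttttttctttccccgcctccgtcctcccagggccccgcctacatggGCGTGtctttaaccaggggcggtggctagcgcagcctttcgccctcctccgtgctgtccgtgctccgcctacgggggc
Ldhb: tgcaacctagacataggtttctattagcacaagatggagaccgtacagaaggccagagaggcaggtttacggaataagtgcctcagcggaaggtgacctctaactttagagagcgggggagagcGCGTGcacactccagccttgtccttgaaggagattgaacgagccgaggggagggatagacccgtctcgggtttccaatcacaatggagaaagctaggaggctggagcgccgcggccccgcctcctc
Hk2 held 2 matches, starting 226 and 52 bases before the start, and the other 3 held 1 each, at 117 bases in Pfkfb4, 78 in Pdk1 and 126 in Ldhb, so matches stood before members that rose and members that fell. In windows of 300 bases (250 before to 50 after a start), ACGTG occurred in 22 of the 53 windows of the 33 members (41.5%) and in 19.6% of 32851 windows of all genes. GCGTG occurred in 56.6% of the members' windows and 32.4% of all windows, and either motif in 75.5% and 43.8%. The palindrome CACGTG, which contains ACGTG and is the core letters bound by Myc, occurred in 11.3% and 7.2%. Windows were not matched on base composition, and a match is a run of letters, not a measured binding site.

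At the entry of glucose, the 2 hexokinases moved in opposite directions. Hk2 (ENSMUSG00000000628), the inducible hexokinase, lay at 87.2, 133, 63.3 and 79.3 CPM in GFP and at 246, 245, 299 and 320 CPM in GFP_TGFB. Every library with TGFB was above every library without it. The log2 fold change was 1.61 (SE 0.23, edgeR adjusted p = 9.3e-06), a 3.06-fold rise. Hk1, the housekeeping hexokinase, fell from 228 ± 12.2 to 183 ± 14.8 CPM (mean ± SD of 4; log2 fold change -0.32, adjusted p = 0.0058). Gpi1 (ENSMUSG00000036427), which turns glucose phosphate into fructose phosphate, lay at 884, 823, 864 and 781 CPM in GFP and at 560, 531, 483 and 511 CPM in GFP_TGFB, again without overlap (log2 fold change -0.68, SE 0.08, adjusted p = 4e-07). The glucose transporter Slc2a1 (GLUT1) was not called, at 164 ± 31.9 and 184 ± 11.2 CPM (log2 fold change 0.17, adjusted p = 0.31), and its libraries overlapped.

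Phosphofructokinase makes fructose bisphosphate and sets the pace of the pathway. Pfkl (ENSMUSG00000020277), the liver-type subunit, lay at 535, 516, 463 and 425 CPM in GFP and at 287, 248, 189 and 224 CPM in GFP_TGFB. Pfkp (ENSMUSG00000021196), the platelet-type subunit, lay at 97.8, 93.1, 86.5 and 91.6 CPM in GFP and at 142, 123, 149 and 151 CPM in GFP_TGFB. Neither gene's groups overlapped: Pfkl fell (log2 fold change -1.03, SE 0.13, adjusted p = 1.9e-06) while Pfkp rose (0.61, SE 0.08, adjusted p = 3e-06). Pfkm, the muscle-type subunit, was called lower at -0.23 (69.5 ± 5.7 to 59.3 ± 3.34 CPM, SD, n = 4, adjusted p = 0.028). Its call was lost (adjusted p 0.0571 to 0.139) when GFP replicate 1 or 2, GFP_TGFB replicate 2, 3 or 4, or all libraries of replicate 1, 2 or 3 were left out.

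The PFKFB enzymes make and break fructose bisphosphate of another kind, the strongest activator of phosphofructokinase. Pfkfb3 (ENSMUSG00000026773), whose enzyme mostly makes the activator, lay at 95.2, 109, 80.5 and 93.0 CPM in GFP and at 60.7, 66.8, 35.5 and 42.1 CPM in GFP_TGFB. Pfkfb4 (ENSMUSG00000025648) lay at 6.42, 6.08, 8.02 and 6.07 CPM in GFP and at 23.2, 19.5, 16 and 16.1 CPM in GFP_TGFB. The groups did not overlap for either gene; Pfkfb3 fell (log2 fold change -0.88, SE 0.19, adjusted p = 0.00061) and Pfkfb4 rose 2.82-fold (1.49, SE 0.14, adjusted p = 2.7e-08). Pfkfb1 (1.77 ± 0.10 and 1.98 ± 0.13 CPM) and Pfkfb2 (5.35 ± 0.55 and 5.47 ± 0.28 CPM; SD, n = 4) were not called, with log2 fold changes of 0.16 and 0.03 and adjusted p of 0.36 and 0.84. The value of Pfkfb2 changed sign under another scaling (-0.07 with library totals alone).

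**Figure D2:**
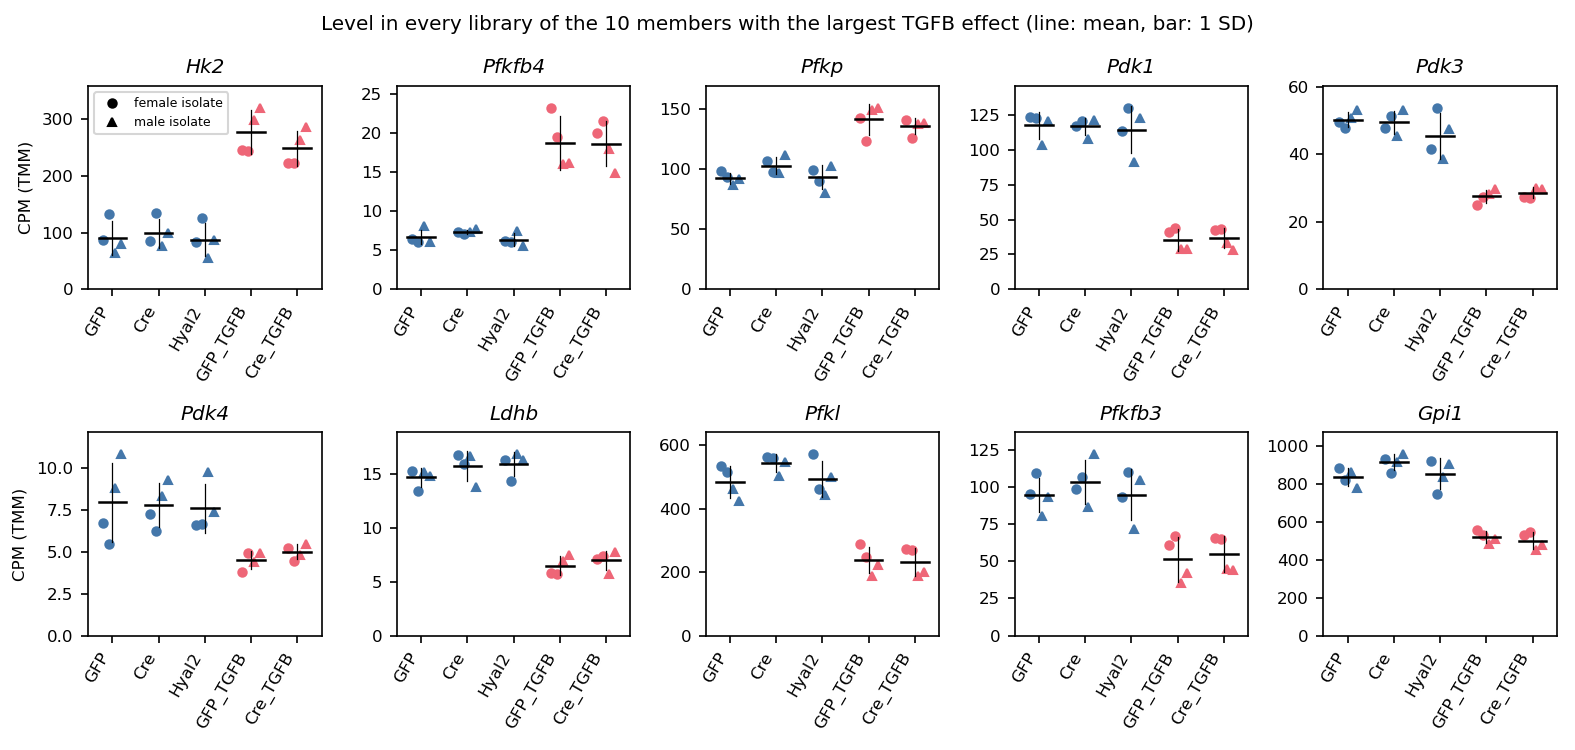
Each panel gives the level in CPM (vertical axis, from 0) in all 20 libraries, by group, of the 10 members with the largest called change in GFP_TGFB against GFP and at least 5 CPM in the higher group; circles are female and triangles male isolates, the line is the mean and the bar 1 SD. Groups with TGFB (red) and without it (blue) do not overlap within either virus in any of the 10 panels, while the GFP, Cre and Hyal2 groups overlap.

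Between fructose bisphosphate and pyruvate, 5 of 10 members fell and 0 rose, where 28.6% of all genes tested were called lower and 26.6% higher. Tpi1, which interconverts the triose phosphates, fell from 798 ± 91.6 to 568 ± 72.2 CPM (mean ± SD of 4; log2 fold change -0.49, adjusted p = 0.0011). Pgk1, which makes ATP, fell from 455 ± 44.4 to 320 ± 31.1 CPM (-0.51, adjusted p = 0.00013). Eno1, the main enolase, fell from 1241 ± 177 to 922 ± 144 CPM (-0.43, adjusted p = 0.011), with overlapping libraries. The minor isoforms Aldoc (0.742 ± 0.191 to 0.309 ± 0.101 CPM, -1.25, adjusted p = 0.0019) and Eno3 (5.3 ± 0.295 to 3.52 ± 0.486 CPM, -0.59, adjusted p = 0.00049) also fell. The other 5 members of this stretch were not called. Gapdh, often used as a reference gene, was at 1370 ± 186 and 1380 ± 87.0 CPM with a log2 fold change of 0.01 (SE 0.10, adjusted p = 0.94), which became -0.09 with library totals alone. Pkm, pyruvate kinase, was at 2625 ± 334 and 2358 ± 225 CPM (-0.15, adjusted p = 0.25; with the replicate block -0.15, adjusted p = 0.0366). Aldoa, the main aldolase, was at 1766 ± 185 and 1497 ± 149 CPM (-0.24, adjusted p = 0.056; with the replicate block -0.24, adjusted p = 0.0029). Aldoa also passed without GFP replicate 4 or GFP_TGFB replicate 1 (adjusted p 0.0299 and 0.0269) and under 3 other settings. Pgam1 (-0.12, adjusted p = 0.49) and Eno2 (0.07, adjusted p = 0.77; -0.03 with library totals alone) were not called.

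Of the 4 genes of lactate handling, 3 fell, where 28.6% of all genes tested were called lower. Ldhb (ENSMUSG00000030246), the lactate dehydrogenase subunit of oxidative tissues, lay at 15.3, 13.4, 15.2 and 14.8 CPM in GFP and at 5.80, 5.72, 6.89 and 7.52 CPM in GFP_TGFB. The groups stood far apart (log2 fold change -1.18, SE 0.11, adjusted p = 2.1e-08). Ldha, the subunit that favours lactate formation, fell from 1622 ± 246 to 1188 ± 122 CPM (SD, n = 4; -0.45, adjusted p = 0.0022). The lactate exporter Slc16a3 (MCT4) fell from 245 ± 57 to 171 ± 27.9 CPM (-0.52, adjusted p = 0.026), with overlapping libraries. Its call was lost with no filter on low counts (adjusted p = 0.0694) and without GFP replicate 1 or 2, GFP_TGFB replicate 3 or 4, or all libraries of replicate 2 or 4 (adjusted p 0.0623 to 0.142). Slc16a1 (MCT1) was not called, at 15 ± 2.2 and 14.8 ± 2.8 CPM (-0.02, adjusted p = 0.92).

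The pyruvate dehydrogenase kinases, which phosphorylate and switch off the pyruvate dehydrogenase complex, were called lower in 4 of 4 cases. Of all genes tested, 28.6% were called lower. Pdk1 (ENSMUSG00000006494) lay at 124, 123, 104 and 121 CPM in GFP and at 41.0, 43.7, 28.7 and 28.6 CPM in GFP_TGFB, a 3.31-fold lower level (log2 fold change -1.73, SE 0.15, adjusted p = 1.5e-08). Pdk3 (ENSMUSG00000035232) lay at 49.7, 47.8, 50.8 and 53.3 CPM in GFP and at 25, 27.3, 28.2 and 29.8 CPM in GFP_TGFB (-0.87, SE 0.09, adjusted p = 1.1e-07). Pdk4 (ENSMUSG00000019577), the isoform known for its response to fasting and fatty acids, lay at 6.71, 5.48, 8.76 and 10.8 CPM in GFP and at 3.79, 4.89, 4.41 and 4.93 CPM in GFP_TGFB (-0.81, SE 0.18, adjusted p = 0.00094). None of these 3 genes' groups overlapped, and the gap of Pdk4 was narrow. Pdk2 fell from 20.9 ± 3.08 to 16 ± 1.6 CPM (SD, n = 4; -0.38, adjusted p = 0.022) with overlap. That call was lost without GFP replicate 3 or 4, GFP_TGFB replicate 2 or 4, or all libraries of replicate 3 or 4 (adjusted p 0.0533 to 0.142).

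The pyruvate dehydrogenase complex is the kinases' target. Pdhb, the beta subunit of its first enzyme, lay at 47.4, 51.6, 48.6 and 54.5 CPM in GFP and at 64.2, 63.0, 74.2 and 79.8 CPM in GFP_TGFB, with no overlap (log2 fold change 0.48, SE 0.08, adjusted p = 3.2e-05). Pdha1, the alpha subunit that the kinases phosphorylate, fell from 196 ± 10.1 to 174 ± 5.17 CPM (SD, n = 4; -0.17, adjusted p = 0.011), a call lost without all libraries of replicate 1 or 4 (adjusted p 0.052 to 0.0846). The pyruvate carrier subunits Mpc1 (10.8 ± 0.82 and 9.83 ± 0.88 CPM, -0.13, adjusted p = 0.21) and Mpc2 (30.5 ± 2.49 and 29.4 ± 1.6 CPM, -0.05, adjusted p = 0.62) were not called.

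Levels of different genes were compared per kilobase of each gene's longest principal mRNA. In GFP, aldolase Aldoa (1169 ± 122 CPM per kilobase, SD, n = 4), Pkm (1079 ± 137), Gapdh (965 ± 131) and Ldha (919 ± 139) stood highest, and neighbours in that order lay within 1 SD of each other. The scarcest were Pfkfb2 (1.21 ± 0.12), Pfkfb1 (1.02 ± 0.06) and Aldoc (0.266 ± 0.069). The hexokinase sum rose from 75.8 ± 8.34 in GFP to 97.8 ± 4.37 in GFP_TGFB, with no overlap, since the libraries of GFP reached 86.9 and those of GFP_TGFB began at 94.99. The phosphofructokinase sum went from 176 ± 16 to 118.2 ± 11.2 and the kinase sum from 58.1 ± 2.59 to 28.3 ± 1.06, both without overlap as well.

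The make-up of these families shifted with TGFB. On the per-kilobase scale Hk2 made up 21.3% ± 4.5 of hexokinase in GFP and 51.4% ± 5.2 in GFP_TGFB (SD, n = 4). Pfkl made up 73.6% ± 0.9 and 53.5% ± 4.8 of phosphofructokinase, and Pfkp 12.7% ± 0.9 and 29% ± 4.1. By this length Hk2 stood level with Hk1 in GFP_TGFB, while Pfkl stayed the main phosphofructokinase. By the length of all annotated exons Hk2 stood above Hk1 in GFP_TGFB (68.2% and 31.8%). Pfkfb4 went from 7.9% ± 1.8 to 28.8% ± 2.8 of the PFKFB genes, with Pfkfb3 the largest in both groups (83.0% ± 2.5 and 58.1% ± 5.0). Pdk1 went from 39.1% ± 3.5 to 24.1% ± 4.6 of the kinases and Pdk2 from 16% ± 2.1 to 25.2% ± 2.4. These shares were described without a test, and they depend on the transcript length: with the length of all annotated exons instead, Hk2 had 35.5% and 68.2% and Pfkp 6.89% and 16.7%, with the same order of GFP and GFP_TGFB. Ldha held 98.8% ± 0.2 of lactate dehydrogenase in GFP and 99.3% ± 0.2 in GFP_TGFB.

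**Figure D3:**
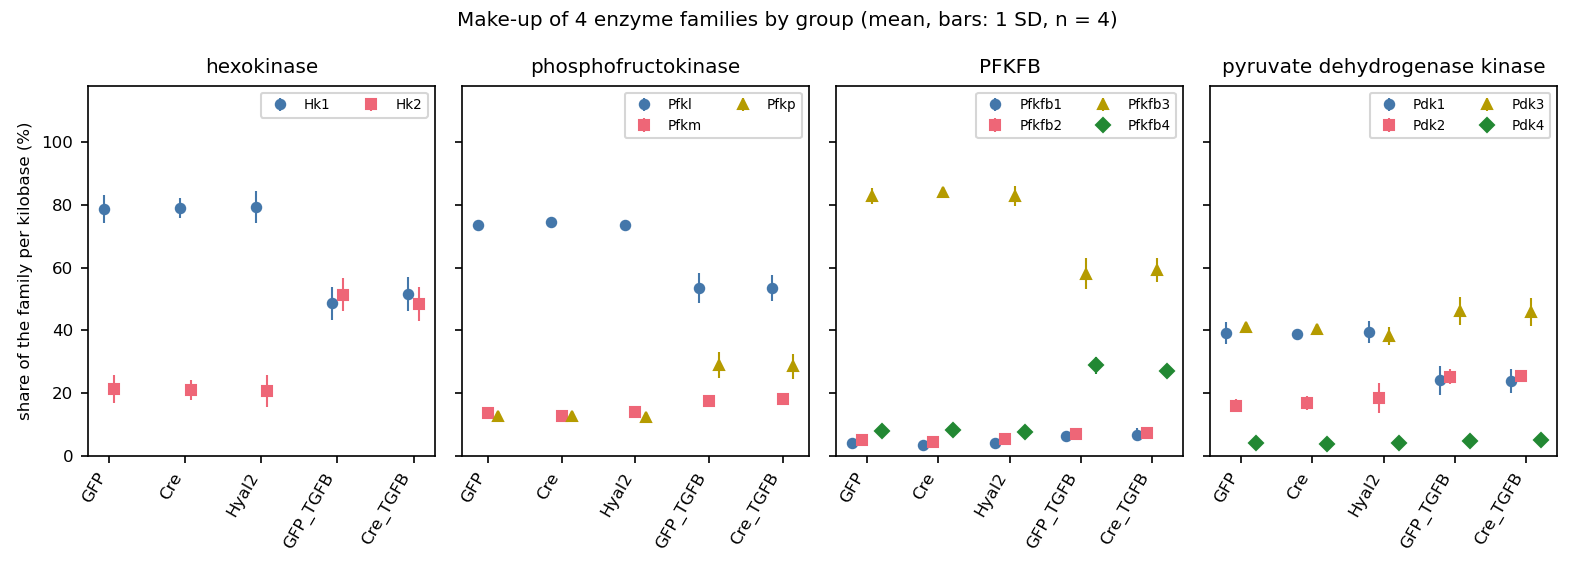
The panels give the share (%) of each isoform in the summed CPM per kilobase of its family, by group (mean, bars 1 SD, n = 4), for hexokinases, phosphofructokinases, PFKFB enzymes and pyruvate dehydrogenase kinases. Hk2 reaches 51.4% in GFP_TGFB from 21.3% in GFP, and Pfkfb4 28.8% from 7.9%.

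The comparison of Cre_TGFB with Cre asks the same question after Hyal2 deletion, in other libraries of the same 4 isolates. In these libraries 25 of 33 members were called, 5 higher and 20 lower (15.2% and 60.6%), where 56.5% of all genes were called, 27.5% higher and 29% lower. The member median was -0.39 and that of all genes -0.00. The libraries did not overlap in 24 members, against 51.2% of all genes. Between the 2 comparisons, 17 members were lower in both, 4 were higher in both (Hk2, Pfkfb4, Pfkp and Pdhb) and 0 were called in opposite directions. Agreement of the 2 comparisons was not counted over all genes, so whether that of the members is more than usual is not known. Pdha1 was called with the GFP virus alone, and Pfkfb1, Aldoa, Pkm and Mpc1 with the Cre virus alone, which does not show that their responses differ. Pfkfb1 had 1.56 ± 0.126 CPM in Cre and 2.22 ± 0.388 CPM in Cre_TGFB (SD, n = 4), a rise of 0.50 on the log2 scale (adjusted p = 0.0054), and its call was lost without all libraries of replicate 4 (adjusted p = 0.0603). Aldoa fell by 0.43 on the log2 scale (adjusted p = 0.0015). Pkm fell by 0.33 (adjusted p = 0.017, but 0.0502 to 0.0674 without Cre replicate 2, Cre_TGFB replicate 3 or all libraries of replicate 4). Mpc1 fell by 0.25 (adjusted p = 0.021), and its call was lost without Cre replicate 1 or 3, Cre_TGFB replicate 3 or all libraries of replicate 1 or 3 and with no filter (adjusted p 0.051 to 0.102). Pfkm and Pdk2, lower at -0.26 and -0.39, lost their calls without Cre replicate 1, Cre_TGFB replicate 4 or all of replicate 3 (Pfkm, adjusted p 0.0521 to 0.097) and without replicate 3 or 4 of Cre, of Cre_TGFB or of all groups (Pdk2, 0.0521 to 0.156). With the replicate block 26 members were called, Pgam1 now among the lower ones (-0.24, adjusted p = 0.0027; 0.15 without the block), where 63.6% of all genes were.

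The interaction, which is the TGFB effect with the Cre virus minus that with the GFP virus, was called for 0 of 33 members by edgeR, DESeq2 and limma-voom and by edgeR with the replicate block; edgeR called 0.0% of all genes. Without the block, 0 members had an unadjusted p below 0.05 by any of the 3 tools, and by edgeR 2.54% of all genes did. EdgeR with the block gave 3 of 33, where 5.56% of all genes had such a p. The smallest p values belonged to Pfkp (log2 difference -0.21, SE 0.11), Gpi1 (-0.18, SE 0.11) and Pfkfb1 (0.34, SE 0.20), each at an adjusted p of 1.00. The value lay below 0 in 24 of 33 members, with a median of -0.11, where the median of all genes was -0.00.

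Without TGFB, Cre was set against GFP to read these genes after Hyal2 deletion. The GFP libraries are also the controls of GFP_TGFB and Hyal2 above and below, so these comparisons are not independent. The changes were small, and 0 of 33 members were called by edgeR (0.0064% of all genes called), by DESeq2 or by limma-voom. An unadjusted edgeR p under 0.05 was found for 0 members and for 4.55% of all genes. With the replicate block 0 members were called and 10 had an unadjusted p under 0.05, where 0.269% of all genes were called and 8.71% had an unadjusted p under 0.05. Pfkp averaged 92.2 ± 4.66 CPM with the GFP virus and 103 ± 7.29 CPM with Cre (SD of 4 libraries; log2 fold change 0.16, SE 0.08, adjusted p = 0.93). Slc16a1 was at 15 ± 2.2 and 12.4 ± 0.39 CPM (-0.27, SE 0.14, adjusted p = 0.93), the 1 member whose groups did not overlap, where 3.68% of all genes did not. Hk1 was at 228 ± 12.2 and 256 ± 20.6 CPM (0.17, SE 0.09, adjusted p = 0.93). The value lay above 0 in 22 of 33 members, with a median of 0.11 against -0.00 for all genes. Within isolates 14 members were above 0 in 4 of 4 pairs and 1 (Slc16a1) was below 0 in 4 of 4. The share of all genes with such agreement was not counted, so whether 14 is more than usual is not known. The median difference over members was 0.07, 0.06, 0.07 and 0.13 in isolates 1 to 4, highest in isolate 4, where Pfkfb3 (0.39) and Pgam1 (0.38) differed most.

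Hyal2 overexpression, compared with the same GFP libraries, left the members without a common direction. EdgeR, DESeq2 and limma-voom called 0 of 33 members, and edgeR called 0.0064% of all genes. An unadjusted p under 0.05 was found for 0 members by each, and by edgeR for 2.12% of all genes. With the replicate block 0 members were called and 1 had an unadjusted p under 0.05, where 4.37% of all genes did. That member was Pdhb, at 50.5 ± 3.19 CPM in GFP and 45.3 ± 3.2 in Hyal2 (SD, n = 4; log2 fold change -0.16, SE 0.08, adjusted p = 1.00), lower in 4 of 4 isolates. Pdk3 (-0.15, SE 0.09) and Slc16a1 (-0.19, SE 0.14) followed, also at an adjusted p of 1.00. The value lay above 0 in 16 members and below 0 in 17, and 2 members were higher and 3 lower in 4 of 4 isolates. Agreement of the isolates was not counted over all genes.

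Under TGFB, Cre_TGFB against GFP_TGFB likewise gave 0 called members by edgeR, DESeq2 and limma-voom (0 at an unadjusted p under 0.05 by each, also with the replicate block; edgeR called 0.0064% of all genes). The smallest p values belonged to Pfkfb2 (log2 fold change 0.16, SE 0.12), Pdhb (-0.09, SE 0.08) and Pfkfb1 (0.16, SE 0.14), all at an adjusted p of 1.00. Over the 33 members the values ranged from -0.16 to 0.16. In 4 of 4 isolates 3 members were lower in Cre_TGFB than in GFP_TGFB (Hk2, Slc16a1 and Pdhb) and 1 was higher (Pfkfb1). For Hk2 the log2 differences were -0.13 to -0.19, and it did not pass the test. Such agreement of the isolates was not counted over all genes.

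**Figure D4:**
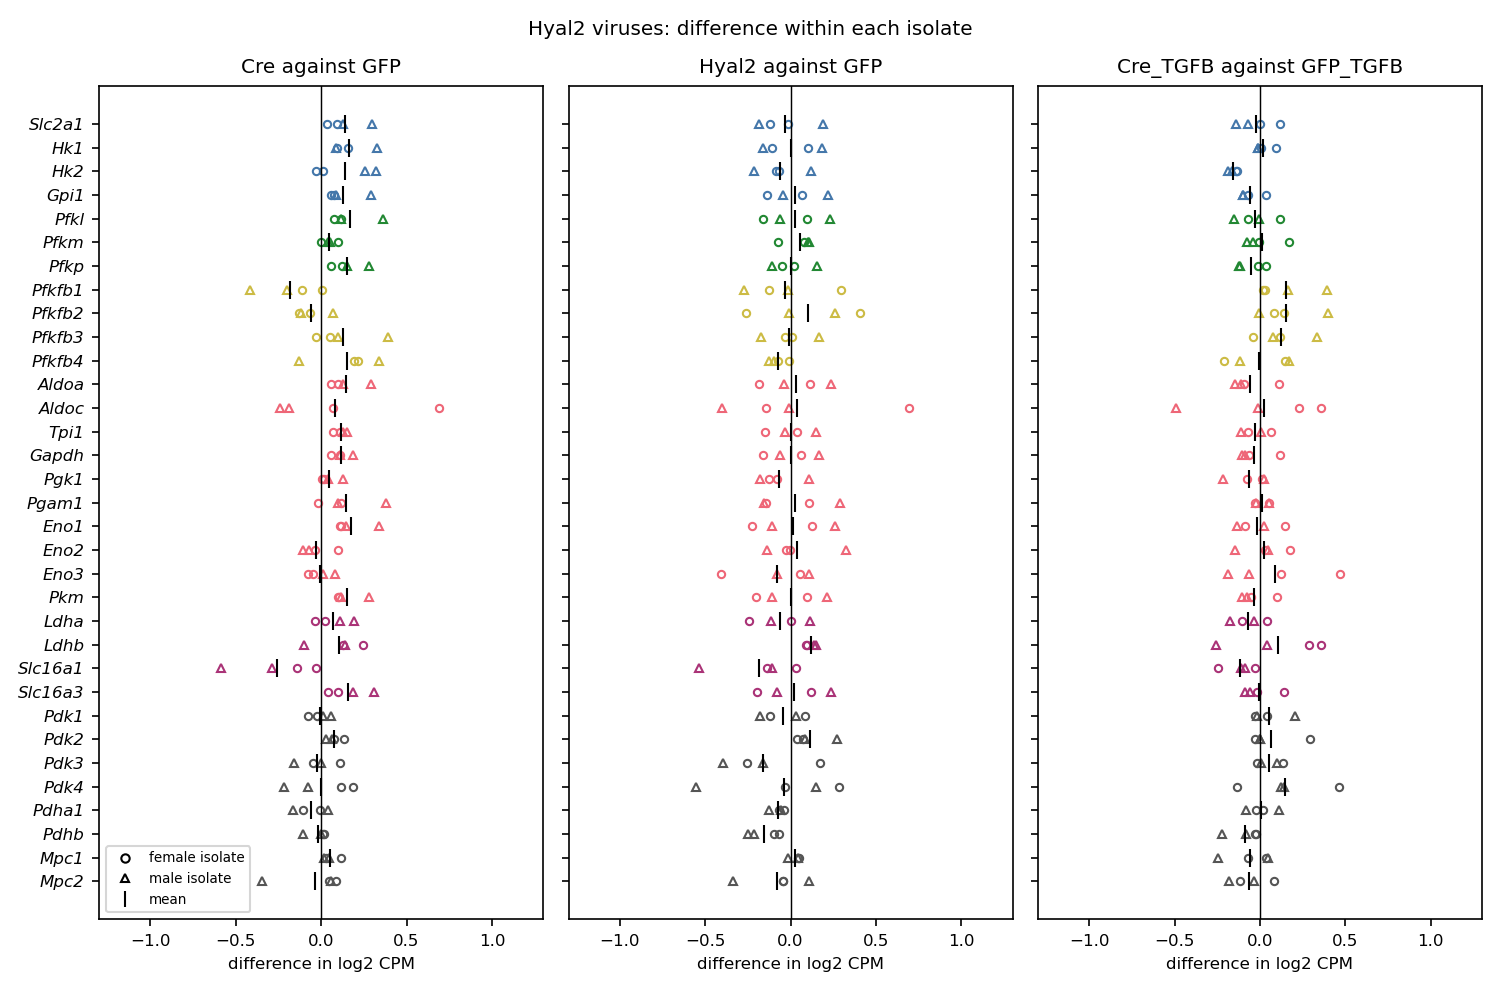
The panels give, for each member (vertical axis), the difference in log2 CPM within each of the 4 isolates (circles female, triangles male, bar the mean) for Cre against GFP, Hyal2 against GFP and Cre_TGFB against GFP_TGFB. Points lie mostly right of 0 for Cre against GFP, with a median over members of 0.06 to 0.13 per isolate, and on either side of 0 in the other panels.

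The TGFB effect with the GFP virus was also compared between the 2 male and the 2 female isolates, a contrast added after values had been seen. EdgeR called 0 of 33 members, where 1.38% of all genes were called. An unadjusted p under 0.05 was found for 6 of 33 members and for 16.5% of all genes. With the replicate block it called 2, Slc2a1 and Hk2, where 6.05% of all genes were called. Slc2a1 (ENSMUSG00000028645) lay at 181, 199, 132 and 141 CPM in GFP and at 186, 168, 188 and 194 CPM in GFP_TGFB. The female isolates therefore stood above the male ones without TGFB and all 4 stood close together with it. The log2 difference, male minus female, was 0.58 (adjusted p = 0.0984 without and 0.0191 with the block). For Hk2 the within-isolate effect was 1.5 and 0.88 in the female and 2.24 and 2.01 in the male isolates, a difference of 0.96 (adjusted p = 0.23), or 0.94 with the block (adjusted p = 0.0398). With the Cre virus the within-isolate effects of Hk2 were 1.39, 0.74, 1.80 and 1.53, and those of Slc2a1 0.01, -0.22, 0.23 and 0.09. The members with the next smallest p were Pfkfb4 (-0.58, adjusted p = 0.16; female isolates 1.85 and 1.67, male 0.99 and 1.40) and Pdk1 (-0.43, adjusted p = 0.22; female -1.59 and -1.49, male -1.85 and -2.08). Each sex is represented by 2 isolates.

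**Figure D5:**
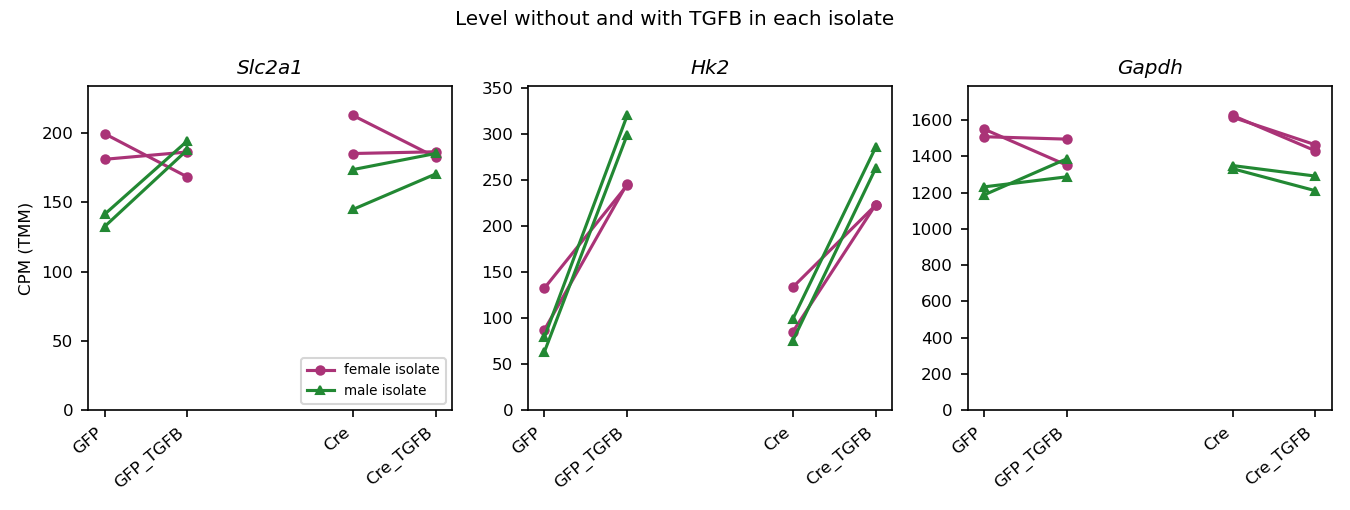
The panels give the level in CPM (vertical axis, from 0) without and with TGFB of Slc2a1, Hk2 and Gapdh, with a line for each isolate (circles female, triangles male) and virus. The lines of Hk2 climb in all 8 pairs, whereas those of Slc2a1 climb in the male isolates and run from 181 to 186 and from 199 to 168 CPM in the female ones with the GFP virus.

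Genes around the pathway were read from further lists in the same comparison of GFP_TGFB with GFP. Beside the counts of each list, 26.6% of all genes tested were called higher and 28.6% lower. With the replicate block 61.9% were called in all. Epas1, which encodes a hypoxia-inducible factor, fell from 214 ± 68.2 to 27 ± 7.3 CPM (mean ± SD of 4; log2 fold change -2.98, adjusted p = 6.9e-08) and its relative Hif1a fell by 0.74 on the log2 scale (adjusted p = 0.00034). Egln3, a prolyl hydroxylase that marks these factors for destruction and is also their target, fell from 16.4 ± 0.48 to 6.09 ± 1.18 CPM (-1.42, adjusted p = 9.5e-08), while Myc, a transcription factor that raises glycolytic genes, rose from 33.7 ± 3.68 to 115 ± 36.4 CPM (1.78, adjusted p = 3.4e-07). Of 23 tested regulators in all, 3 rose and 11 fell (4 and 12 with the replicate block), with a median of -0.18. Hif1a is named although the rule for named genes does not reach it, after its value had been seen. Of 24 hypoxia targets outside glycolysis, 5 rose and 15 fell (median -0.63); Egln3 and Mxi1 are in both lists. Ndufa4l2, a hypoxia-induced mitochondrial protein, fell from 261 ± 69.6 to 18.2 ± 3.24 CPM (-3.84, adjusted p = 8e-10), but the targets Loxl2, a collagen cross-linking enzyme (942 ± 44.8 to 2359 ± 137 CPM, 1.32, adjusted p = 6.3e-11), and Vegfa, the endothelial growth factor (306 ± 16.9 to 762 ± 104 CPM, 1.32, adjusted p = 5.6e-10), rose.

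Glycogen genes were lower in 8 of 12 cases and higher in 1 (2 with the replicate block), with a median of -0.68. Of all genes tested, 28.6% were called lower and 26.6% higher. Ppp1r3c, which targets a phosphatase to glycogen and promotes its synthesis, fell from 67.6 ± 14 to 0.907 ± 0.669 CPM (mean ± SD of 4; log2 fold change -6.13, adjusted p = 2.5e-10). The phosphorylase Pygl fell from 66.5 ± 14 to 23.5 ± 3.11 CPM (-1.5) and the branching enzyme Gbe1 from 24.6 ± 2.26 to 13.4 ± 1.52 CPM (-0.88). Among 19 other glycolytic isoforms and helpers 3 rose and 8 fell (5 and 9 with the replicate block; median -0.49). Adpgk, an ADP-dependent glucokinase, rose from 36.5 ± 2.88 to 76.5 ± 5.63 CPM (1.07) and Tigar, which breaks down the activator of phosphofructokinase, from 10.3 ± 1.1 to 17.4 ± 0.49 CPM (0.75). Bsg, the chaperone of the lactate transporters, fell from 1215 ± 69.0 to 845 ± 37.7 CPM (-0.52).

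Downstream of pyruvate, 12 of 19 citrate cycle genes rose and 2 fell (median 0.23), with Idh3a from 40.7 ± 4.72 to 94.1 ± 4.11 CPM (mean ± SD of 4; log2 fold change 1.21, adjusted p = 4.7e-08), Cs, citrate synthase, from 209 ± 15.9 to 296 ± 5.59 (0.50) and Idh2, which fell from 46.9 ± 2.15 to 30.2 ± 1.38 (-0.63). Among 12 other pyruvate enzymes 4 rose (5 with the replicate block) and 5 fell (median -0.01). Pcx, pyruvate carboxylase, fell from 36.9 ± 4.81 to 16.2 ± 1.96 CPM (-1.19). Dlat, the second enzyme of the pyruvate dehydrogenase complex, rose from 38.9 ± 2.55 to 62.2 ± 2.54 CPM (0.68), and Gpt2, a mitochondrial alanine transaminase, from 16.7 ± 1.84 to 54.2 ± 15.7 CPM (1.70). Of 10 genes of the shuttles that pass the electrons of NADH to mitochondria 3 rose and 1 fell (2 with the replicate block), with a median of 0.08. Among them were Got1 (39.3 ± 8.58 to 113 ± 23.5 CPM, 1.53), Got2 (73.0 ± 9.4 to 108 ± 3.64 CPM, 0.56) and Gpd1l (28 ± 2.5 to 17.2 ± 0.284 CPM, -0.70). Of 8 pentose phosphate genes 4 rose and 2 fell (3 with the replicate block; median 0.12): Taldo1 rose from 118.1 ± 21.1 to 208 ± 12.3 CPM (0.82), while H6pd fell from 337 ± 26 to 164 ± 10.6 (-1.04) and G6pdx, the entry enzyme, from 183 ± 14.8 to 122 ± 3.75 (-0.59). Pck2 (144 ± 20.1 to 309 ± 78.5 CPM, 1.1) and G6pc3 (34.7 ± 2.49 to 40.8 ± 2.28 CPM, 0.23), the 2 tested genes of gluconeogenesis, rose. Beside the counts of these lists, 26.6% of all genes tested were called higher and 28.6% lower.

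Markers of other cell types moved with TGFB too. Of all genes tested, 26.6% were called higher and 28.6% lower in this comparison, and 61.9% were called in all with the replicate block. The 13 leukocyte markers summed to 234 to 546 CPM in GFP and 133 to 331 in GFP_TGFB (0 of 12 tested rose, 6 fell and, with the replicate block, 12), the 9 endothelial markers to 38.6 to 42.9 and 17.1 to 22.3 (0 rose, 5 fell and, with the block, 7), the 7 adipocyte markers to 104 to 331 and 21 to 31 (0 of 2 tested rose, 2 fell) and the 7 Schwann cell markers to 39.9 to 43.5 and 20.3 to 23.7 (0 of 5 tested rose, 3 fell). Single genes carried much of each of these sums. Lyz2 of leukocytes had 332, 226, 193 and 144 CPM in GFP and 223, 170, 114 and 89.6 in GFP_TGFB. Tek of endothelium fell from 20.8 ± 5.02 to 5.01 ± 0.761 CPM (mean ± SD of 4), Lpl of adipocytes from 230 ± 116 to 24.6 ± 5.31 and Cnp of Schwann cells from 33.5 ± 1.47 to 18.5 ± 1.33. The adipocyte markers Adipoq, Plin1 and Cidec reached at most 0.248 CPM in a library of GFP. The 8 mesothelial markers summed to at most 5.75 CPM in any group, and the 7 pericyte and smooth muscle markers to 98.8 to 168 in GFP and 101.2 to 113 in GFP_TGFB (2 rose and 2 fell, 3 and 3 with the block). Within the pericyte sum, Cspg4 rose from 2.55 ± 0.356 to 64.6 ± 6.48 CPM and Notch3 fell from 127 ± 30.2 to 38.7 ± 3.65 CPM. Of 12 fibroblast markers 2 rose (3 with the block) and 8 fell. Erythroid markers were at or near 0, with at most 0.0271 CPM in any library. Adipocyte Lep had 0 counts in GFP and GFP_TGFB, as did Gfra3 of Schwann cells. The part of other cell types in the results above was not tested. Mitochondrially encoded genes took 0.625% to 1.2% of counts in GFP and 0.789% to 1.08% in GFP_TGFB.

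Some members share annotated exons with a neighbour, which could affect their counts. On the opposite strand this held for 23.1% of the exon bases of Mpc1 (4930506C21Rik), 16.1% of Pdha1 (Map3k15), 11.5% of Gpi1 (Gm26762) and 5.6% of Pfkp (Pitrm1). On the same strand it held for 17.4% of Pfkfb2 (Gm29427), 15.3% of Pkm (Gm49759) and 10.2% of Pfkm (Gm26513). Of these neighbours Gm26762 had no row in the count table and Gm29427 had 10 counts over all libraries. The others had 319 (Gm26513) to 78161 (Pitrm1). Adding the counts of annotated near-identical copies, such as pseudogenes of Gapdh, Ldha, Aldoa and Pgk1, to their members changed 0 calls in any comparison of the report.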

How the data were processed

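RNA was measured in 20 cultures, 4 in each of 5 groups. Extraction used Trizol with a DNase step, and the library kit was NEBNext Ultra II RNA, per the labels' protocols. The deposited values are raw counts per Ensembl gene, made by the authors with HTSeq 0.10.0 after FastQC 0.10.1 on build GRCm39, per the submitters' processing notes. For the aligner, annotation release and strand setting, nothing is given in the sources used here, and reads of overlapping genes and copies may be shared.

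The 33 members and all lists were chosen with earlier results of these data known. Symbols and transcript lengths came from GENCODE M21 (GRCm38), which named 52081 of 55414 rows. Where Aldoa named 2 rows, the row with more counts was used. Of 31062 genes with any count, 15624 passed edgeR's filter (at least 10 counts, scaled to library size, in 4 libraries and 15 in total). Counts were scaled by TMM and tested with edgeR 4.0.16 (robust quasi-likelihood F test, R 4.3.3), in 1 fit of all 20 libraries with a mean per group, and p-values were adjusted by Benjamini-Hochberg over all genes tested. Standard errors were obtained from each log2 fold change and its F statistic. The script was tested on simulated data.

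Library names carry isolate codes that recur with the same replicate number in every group, so the numbers mark isolates, and p-values measure the spread between these cultures. Deviations from group means correlated at 0.114 to 0.712 in 40 pairs of the same number, against -0.606 to 0.442 between other numbers of other groups, and 20 of 20 libraries matched best with their own number. A fit with the replicate number as a block, other scalings (RLE, upper quartile, library totals), no filter, DESeq2 1.42.0, limma-voom (limma 3.58.1), the compared groups alone, copies added and libraries left out were alternatives. The lowest detectable level, 3 counts, was 0.0286 to 0.0777 CPM, for counting error only.

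Genes named in full were the up to 10 members with the largest called change in GFP_TGFB against GFP and at least 5 CPM in the higher group; in each further list up to 3 genes were named. Other members are given with their group values.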

Additional observations from a re-analysis of the deposited data

Results flagged for a closer look

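In 6 of the 165 sets of 4 libraries of a member and group, 1 library stood apart (by Dixon's ratio at its 95% critical value, which chance passes in about 1 in 20 sets). These were Eno2 in Cre_TGFB replicate 4, at 13.9 CPM against 10.7 to 10.95 in the other 3, and Eno3 in GFP_TGFB replicate 4, at 4.25 against 3.21 to 3.33. Pfkfb1 in Cre replicate 3 was at 1.38 CPM against 1.60 to 1.65, and Pdk1 in GFP replicate 3 at 104 CPM against 121 to 124. Pdha1 in Cre_TGFB replicate 3 was at 187 CPM against 170 to 172, and Mpc2 in Cre_TGFB replicate 4 at 26.5 CPM against 28.5 to 28.8.

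In 12 cases, over the 33 members in each within-isolate comparison, both male isolates moved one way and both female isolates the other. Random signs give such splits too, and the number to expect from them was not computed. The values are log2 differences, male minus female. With TGFB and the GFP virus these were Gapdh (0.25, edgeR adjusted p = 0.317 for the sex difference) and Mpc2 (-0.13, adjusted p = 0.77). The difference between the sexes was not tested in the others. With TGFB and the Cre virus it was 0.50 for Slc16a1. For Cre against GFP it was -0.60 for Aldoc, 0.11 for Eno3, 0.085 for Pdk1, -0.30 for Pdk4 and -0.068 for Pdhb. For Cre_TGFB against GFP_TGFB it was -0.16 for Slc2a1, -0.062 for Hk1, -0.54 for Aldoc and -0.42 for Eno3. With the replicate block, the sex difference in the TGFB effect with the GFP virus was called for 2 members. These were Slc2a1 (0.58, edgeR adjusted p = 0.0191) and Hk2 (0.94, adjusted p = 0.0398), with 2 isolates of each sex. They made up 6.06% of the members, where 6.05% of all genes were called. Without the block, edgeR called 0 of 33 members.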

How the results depend on the processing

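No called member changed direction under any alternative run. In GFP_TGFB against GFP, 317 of 330 member values under 10 other settings kept their sign and side of the threshold, and 357 of 396 did so with libraries or replicates left out; in Cre_TGFB against Cre these were 324 of 330 and 374 of 396. Leaving out 1 library or 1 replicate number gave 19 to 23 called members with the GFP virus and 22 to 25 with the Cre virus, and 0 to 0 in the other 5 comparisons. For the sex difference in the TGFB effect, 0 members were called in the main analysis and with any 1 library left out. The replicate block called 2, where 6.05% of all genes were called, and DESeq2 called 1, where 785 of 15624 genes were called. No filter on low counts gave 2 and only the groups compared gave 1. The share of all genes under the last 2 settings is not given here. The cause of these changes was not tested. The replicate block changed the calls of Aldoa, Pkm and Pgam1, given beside their values, and of Slc2a1 and Hk2 in the sex difference, and no other member's call. Adding the counts of copies changed no call. Depth limits Aldoc most, with as few as 7 counts in a library.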
